A study of Mus musculus with 5 samples.

Results

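Promoters of mouse genes that carry only a provisional name, Gm followed by a number or a RIKEN clone name ending in Rik, were followed through promoter contact maps of Sertoli cells and pre-granulosa cells. A promoter fragment (a bait) was included when it lay on chromosomes 1 to 9, had contacts within its own chromosome (cis), and every gene symbol in its name was of either form. The rule kept 259 of the 7674 baits with such contacts in the table of original baits, where a bait is a single restriction fragment with a median length of 709 bp among these 259. In the table of extended baits, where a bait is a bin with a median length of 5341 bp, it kept 360 of 11063. Sertoli cells were sorted from E13.5 gonads by GFP in Sox9IRES-GFP embryos (3 libraries), and pre-granulosa cells by mCherry in Enh8-mCherry embryos (2 libraries), from about 100000 cells per library. Each population is therefore the set of cells in which its reporter was active, and nothing in the labels says that the libraries of a group came from separate litters.

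Sertoli cells and pre-granulosa cells are the supporting cells that surround the germ cells of the fetal testis and the fetal ovary, and both arise from the same progenitors of the bipotential gonad. A Gm symbol is a placeholder for a gene model predicted in the mouse genome, and a Rik symbol is a placeholder for a gene known from a full-length cDNA clone of the RIKEN collection. Capture Hi-C joins DNA ends that lie close together in the nucleus and enriches the joined pairs that hold a chosen promoter, so that distant elements and other promoters near it can be read out.

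Each contact carries 1 score per cell type, named by the authors as a CHiCAGO score, which rises as a contact exceeds the background modelled for its distance, for both of its ends and for technical noise. A contact was called at a score of at least 5, and it was shared when both cell types called it. The libraries of a cell type stand behind 1 column, so no value below has a replicate error and no test between cell types was possible. Percentages carry 95% Wilson intervals and medians carry 95% order-statistic intervals, and both cover counting error only. The tables hold no expression values, so the cell types could not be checked against their markers.

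The provisional names did not mark the genes as non-coding. The 259 original baits carried 230 symbols, 106 Gm and 124 Rik, of which 176 were found in RefSeq, 158 under the same name and 18 under a newer one. RefSeq typed 146 of the 176 (83.0%) as protein-coding, 16 as long non-coding RNAs (lncRNA) and the others as pseudogenes or miscellaneous RNA. Renamed members include C530008M17Rik (now Cracd), B230118H07Rik (Iftap), 4931406P16Rik (Garre1) and Gm4969 (Bhmg1). The other 54 symbols were not matched and their type is not used here. The extended table gave a like picture, with 212 of 254 matched symbols typed as coding (83.5%).

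The promoters of 5 members on which the results turn are printed below in RefSeq's GRCm38.p6, the assembly also known as mm10, each from 250 bases before to 50 after the annotated start. The 1110051M20Rik promoter (chr2:91444665-91444964, minus strand) belongs to the bait with the most contacts, and that of A730049H05Rik (chr6:92816193-92816492, plus strand) to an lncRNA with 1 of the 2 largest Sertoli excesses. The 1700030K09Rik promoter (chr8:72443630-72443929, plus strand) belongs to a bait with a pre-granulosa excess. The Gm4969 promoter (chr7:19118295-19118594, minus strand) has the strongest shared contact with the original baits, and that of 9130019O22Rik (chr7:127387117-127387416, minus strand) a contact with a coding gene that was high in Sertoli cells. Capitals mark the letters CCAAT, or ATTGG on the other strand, and in 9130019O22Rik also CAAGGTCA, the form bound by NR5A1, on the other strand.
1110051M20Rik: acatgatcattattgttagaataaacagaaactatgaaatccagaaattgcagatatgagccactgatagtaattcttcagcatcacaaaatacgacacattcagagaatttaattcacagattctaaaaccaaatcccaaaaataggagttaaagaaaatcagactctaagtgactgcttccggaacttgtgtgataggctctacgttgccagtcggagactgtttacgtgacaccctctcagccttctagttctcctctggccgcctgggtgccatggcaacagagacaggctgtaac
A730049H05Rik: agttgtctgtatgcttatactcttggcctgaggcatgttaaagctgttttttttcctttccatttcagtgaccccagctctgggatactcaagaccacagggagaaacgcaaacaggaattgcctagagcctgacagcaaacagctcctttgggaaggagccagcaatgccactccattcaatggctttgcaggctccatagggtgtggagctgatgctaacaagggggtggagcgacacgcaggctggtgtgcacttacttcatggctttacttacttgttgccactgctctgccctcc
1700030K09Rik: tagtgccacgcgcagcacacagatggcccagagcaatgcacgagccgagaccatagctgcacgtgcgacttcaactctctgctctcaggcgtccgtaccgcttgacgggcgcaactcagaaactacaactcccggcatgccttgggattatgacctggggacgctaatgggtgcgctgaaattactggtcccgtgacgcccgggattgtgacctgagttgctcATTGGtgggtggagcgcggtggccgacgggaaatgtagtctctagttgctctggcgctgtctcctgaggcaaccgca
Gm4969: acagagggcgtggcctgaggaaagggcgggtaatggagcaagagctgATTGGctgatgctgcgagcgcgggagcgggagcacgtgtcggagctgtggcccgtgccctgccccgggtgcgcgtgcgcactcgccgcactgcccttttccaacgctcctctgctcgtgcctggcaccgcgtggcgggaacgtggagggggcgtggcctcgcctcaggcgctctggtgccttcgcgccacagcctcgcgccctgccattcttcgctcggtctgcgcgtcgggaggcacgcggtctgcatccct
9130019O22Rik: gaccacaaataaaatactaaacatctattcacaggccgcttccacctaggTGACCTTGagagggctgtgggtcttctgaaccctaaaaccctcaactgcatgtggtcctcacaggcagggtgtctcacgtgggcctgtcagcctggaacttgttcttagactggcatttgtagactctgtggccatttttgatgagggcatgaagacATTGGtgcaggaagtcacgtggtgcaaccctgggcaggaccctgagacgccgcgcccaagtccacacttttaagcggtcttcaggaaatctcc
The 5 promoters differ in base composition: C and G make up 70.3% of the bases of Gm4969, with 35 CpG dinucleotides, against 41.3% with 6 in 1110051M20Rik. The A730049H05Rik promoter holds 3 CpG dinucleotides and that of 1700030K09Rik 23.

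Among 121 member starts that RefSeq places inside a bait, the median C and G content was 51.3%, against 53% over all 18612 promoters of the same 300 bases on these chromosomes, 56.7% over coding promoters and 48.3% over lncRNA promoters. The letters searched for, on both strands, occurred about as often as in all promoters for TATAAA (10.7% of member starts against 13.7%) and CCAAT (37.2% against 37.5%). The CTCF core motif was found in 2.48% against 2.43%, and CAAGGTCA in 1.65% (2 starts) against 1.56%. AACAATGG, a form bound by SOX factors, occurred in 3 starts (2.48% against 1.06%), and AGATAAG, a form bound by GATA factors, in 0 against 3.13%. A match is a description of the letters and not a binding site.

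Some Gm and Rik baits lay inside other genes. Of the 259, 77 overlapped the RefSeq span of a coding gene of another name, but 40 of these 77 carried a symbol not matched in RefSeq, where the span may be that of the bait's own gene under another name. Among the 203 baits with every symbol matched, 37 (18.2%, 13.52 to 24.1) lay in another coding gene, against 7.58% (6.995 to 8.20) of 7405 other baits matched likewise. The start of another coding gene lay within 1 kb of 12 of the 203 (5.91%, 3.41 to 10.05, against 4.70%), and the nearest such start was at a median of 28.96 kb, against 26.6 kb. For a bait inside another gene, a contact of the Gm or Rik promoter cannot be told apart from one of the gene around it.

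The members had 1007 listed cis contacts with the original baits. Sertoli cells called 796 of them (79.0%, against 80.2% of all contacts in the table) and pre-granulosa cells 441 (43.8%, against 41.5%), a ratio of 1.80, with 1.94 for the other baits. Both cell types called 230 (22.8%, against 21.7%), while 566 were called in Sertoli cells alone and 211 in pre-granulosa cells alone. These shares were near the background of the whole table. Among contacts called in 1 cell type alone, the score in the other reached 3 for 28.6% of the Sertoli calls (against 33.9% over all baits) and for 52.6% of the pre-granulosa calls (against 48.3%).

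**Figure D1:**
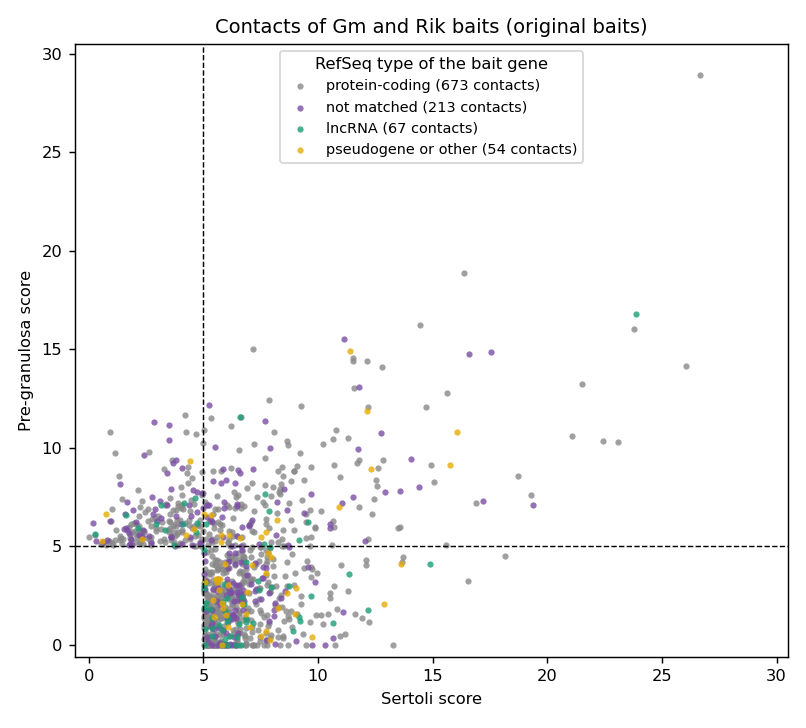
Scores of the 1007 listed contacts of Gm and Rik baits with the original baits. Each point is 1 contact, with its Sertoli score on the x axis and its pre-granulosa score on the y axis, coloured by the RefSeq type of the bait's gene, and the dashed lines mark the threshold of 5. The shared contacts are the 230 points at or above both lines, the highest being that of Gm4969 at 26.7 and 28.9, and coding baits hold most points in each region.

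The 111 baits with Gm names had 343 Sertoli and 204 pre-granulosa calls, a ratio of 1.68, and 148 baits with Rik names had 453 and 237, a ratio of 1.91. Contacts called in Sertoli cells and listed at a pre-granulosa score of exactly 0 numbered 56 (7.04%, 5.46 to 9.03, against 5.23% of all Sertoli calls), of which 41 belonged to Rik baits (9.05% of their Sertoli calls, 6.74 to 12.1) and 15 to Gm baits (4.37%, 2.67 to 7.09). By RefSeq type, the 173 coding baits had 536 Sertoli and 289 pre-granulosa calls (ratio 1.85) and the 56 unmatched ones 157 and 111 (1.41). The 16 lncRNA baits stood highest with 55 and 20 (2.75), but 2 of them, A730049H05Rik and Gm15737 in the gene Adamts9, held 23 of the 55 Sertoli calls. Without both, a step chosen after the values were seen, the lncRNA ratio was 1.78, and that of chromosome 6 went from 3.13, the highest of the 9 chromosomes, to 1.85.

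Counted per bait, 160 of the 259 (61.8%, 55.7 to 67.5, against 65.2% of all baits) had more Sertoli than pre-granulosa calls, 62 (23.9%, against 22.0%) had more pre-granulosa calls, and 37 had equal numbers. No pre-granulosa call was listed for 76 baits (29.3%, 24.1 to 35.2, against 33.7% of all baits), no Sertoli call for 42 (16.2%, 12.2 to 21.2, against 14.3%), and 141 had calls in both (54.4%, against 52.0%). The median was 2 contacts per bait, as over all baits, and 100 baits had a single one (38.6%, against 35.2%). At the other end, 30 baits had 10 or more, and their 373 contacts made up 37.0% of the total, against 32.2% over all baits. When each cell type was given the same number of calls over the whole table, by raising the Sertoli threshold, members had 424 Sertoli and 441 pre-granulosa calls. Of the 215 members that kept a call, 70 (32.6%, 26.6 to 39.1) then had more Sertoli calls, against 37.9% of the 6303 baits of the whole table that kept one.

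**Figure D2:**
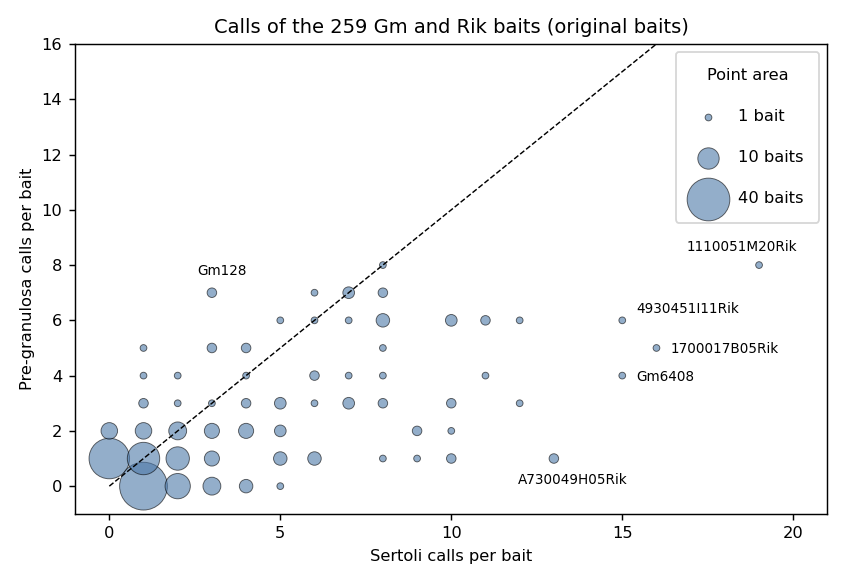
Number of calls per bait in Sertoli cells (x axis) and pre-granulosa cells (y axis) for the 259 Gm and Rik baits, with the area of a point showing how many baits share it and the dashed line marking equal numbers. The 160 baits with a Sertoli surplus lie below the line, out to 1110051M20Rik with 19 and 8 calls, and Gm128 lies above it with 3 and 7.

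Sertoli calls of the members reached farther than their pre-granulosa calls, at a median of 56.2 kb (46.4 to 65.4) against 22.4 kb (19.1 to 29.1). For the other baits the medians were 42.3 and 26.2 kb. Without baits of 10 or more contacts, a step chosen after the values were seen and one that removes baits by the number of the calls measured here, the Sertoli median was 34.3 kb for the members and 33.9 kb for the others, and the pre-granulosa medians were 16.4 and 19.6 kb. Shared contacts were closest, at 14.6 kb, against 70.6 kb for those called in Sertoli cells alone and 32.5 kb for those called in pre-granulosa cells alone.

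Among Sertoli calls, the members and the other baits differed most in the class of 20 to 50 kb. That class held 105 Sertoli calls of the members, 13.2% of the total (11.02 to 15.7), against 19.1% for the other baits (18.6 to 19.7). Its 82 pre-granulosa calls made up 18.6%, against 19.4%, so the class held 1.28 Sertoli calls per pre-granulosa call, against 1.92 for the other baits. From 100 to 200 kb the members had 170 Sertoli and 64 pre-granulosa calls, a ratio of 2.66, with 2.67 for the others. Of the 56 contacts at 0 in pre-granulosa cells, 24 lay between 100 and 200 kb and 26 between 200 and 500 kb.

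**Figure D3:**
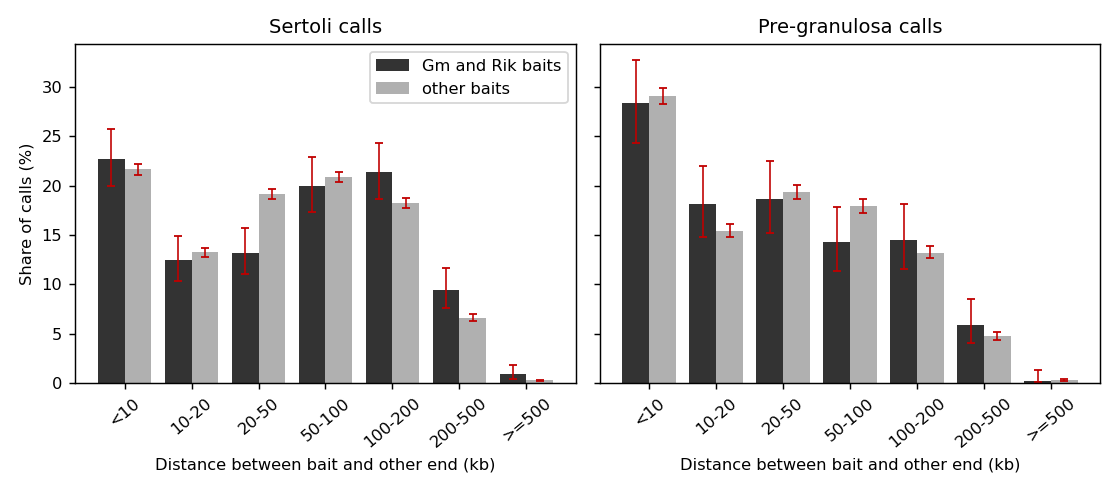
Share of calls in each class of distance between bait and other end (x axis, kb) for Sertoli calls (left) and pre-granulosa calls (right) of the original baits. Dark bars are Gm and Rik baits, light bars all other baits, and the lines are 95% Wilson intervals. In the class of 20 to 50 kb the Sertoli bars stand at 13.2% and 19.1%, and the pre-granulosa bars at 18.6% and 19.4%.

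The 5 baits with the most contacts were all coding, a type given to 83.0% of the matched symbols. All had more Sertoli calls, as did 61.8% of the 259 baits. Of all listed contacts, 80.2% were Sertoli calls, so a ranking by contacts favours baits with Sertoli calls. The 1110051M20Rik bait (chr2:91444040-91444956) led with 20 contacts, 19 Sertoli and 8 pre-granulosa calls, spread over 4.06 to 166 kb. Its highest pre-granulosa score, 15.0 against 7.17 in Sertoli cells, fell 155 kb away, and its farthest bin, in Arfgap2, a gene for a regulator of ARF GTPases in vesicle coats, scored 10.97 against 0.43. Both cell types called the bin at 155 kb. The bin touching it, 160 kb away, scored 9.10 in Sertoli cells against 1.58, so the higher score could change between neighbouring bins. The 1700017B05Rik bait (chr9:57261381-57261855) had 18 contacts, 16 Sertoli and 5 pre-granulosa calls, and the 9 farthest overlapped Ppcdc, which encodes an enzyme of coenzyme A synthesis. Its highest pair of scores was 26.1 in Sertoli cells against 14.2 in pre-granulosa cells at 164 kb. Gm6408 (16 contacts, 15 and 4 calls), 4930451I11Rik (16, with 15 and 6) and Gm8439 (14, with 12 and 6) made up the rest. The Gm6408 bin 107 kb away scored 10.7 in Sertoli cells against 0 in pre-granulosa cells, while the bin 143 kb away scored 5.78 and 8.81.

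The largest Sertoli excess was that of A730049H05Rik and 9430015G10Rik, each with 13 Sertoli calls and 1 pre-granulosa call. A730049H05Rik (chr6:92816045-92816589) is an lncRNA gene inside the span of Adamts9, which encodes a secreted metalloprotease that cleaves matrix proteoglycans, and all 13 of its bins overlapped Adamts9. Its Sertoli scores ran from 5.06 to 11.3 and its pre-granulosa scores from 0.31 to 6.11. In 1 bin, 76.9 kb away, the pre-granulosa score was the higher (6.11 against 5.10). The second lncRNA bait of the locus, Gm15737 (chr6:92868541-92869454), had 10 contacts, also all in bins that overlapped Adamts9, with 10 Sertoli calls and 1 pre-granulosa call, at 5.35. The baits A730049H05Rik and Gm15737 reached 14 bins between them and shared 9.

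The extended baits showed the same locus from its 3 promoter bins. The contact of A730049H05Rik with Adamts9 scored 11.8 in Sertoli cells against 0.16 in pre-granulosa cells, and 12.4 and 0.30 when read from the Adamts9 bait, 86.6 kb away. The contact between Gm15737 and A730049H05Rik, 54.5 kb apart, scored 23.8 and 5.81 from the first and 19.2 and 4.66 from the second. Gm15737 to Adamts9 scored 10.1 and 3.67, and 7.94 and 3.45 in the other direction. All 3 pairs were higher in Sertoli cells from either end, but both ends are read from the same libraries. The Adamts9 bait itself had 7 Sertoli calls and 0 pre-granulosa calls in this table, so the Sertoli excess was seen from all 3 baits.

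Baits with a pre-granulosa excess were smaller. Gm128 (chr3:95241507-95241723), a coding gene whose bait overlaps Bnipl, had 3 Sertoli and 7 pre-granulosa calls among 8 contacts. On its left side a bin in Cdc42se1 at 6.65 kb scored 19.3 in Sertoli cells against 7.59 in pre-granulosa cells. To the right, over Bnipl, Prune1 and Mindy1, 6 of 7 bins scored higher in pre-granulosa cells, the highest at 9.87 against 6.56. Gm20422 in Zfp866, a zinc finger gene, had 3 and 7 calls among 9 contacts. The 1700030K09Rik bait (chr8:72442856-72444002), which overlaps the coding gene Calr3, had 1 and 5: a bin at 8.32 kb was shared at 10.7 and 9.15, and the 4 others scored 5.73 to 7.17 in pre-granulosa cells against 0.98 to 3.34 in Sertoli cells. Gm13090, inside Camta1, a gene for a calmodulin-binding transcription activator, had 1 and 4 calls, with 10.8 in pre-granulosa cells against 0.94 in Sertoli cells at 53.7 kb. Gm15056 had 3 and 5 calls, and its bait overlaps the span of another gene model, Gm6040, so its contacts cannot be told apart from those of Gm6040. With the extended baits the excess was kept by 1700030K09Rik (1 and 4 calls), Gm13090 (2 and 4) and Gm15056 (3 and 6), while Gm20422 had 5 and 5 and Gm128 turned to 11 Sertoli and 7 pre-granulosa calls. Towards Sertoli cells, the extended baits gave 12 and 1 for A730049H05Rik and 4 and 2 for 9430015G10Rik, and the 5 baits with the most original contacts kept more Sertoli calls, the closest being Gm8439 with 8 and 7.

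**Figure D4:**
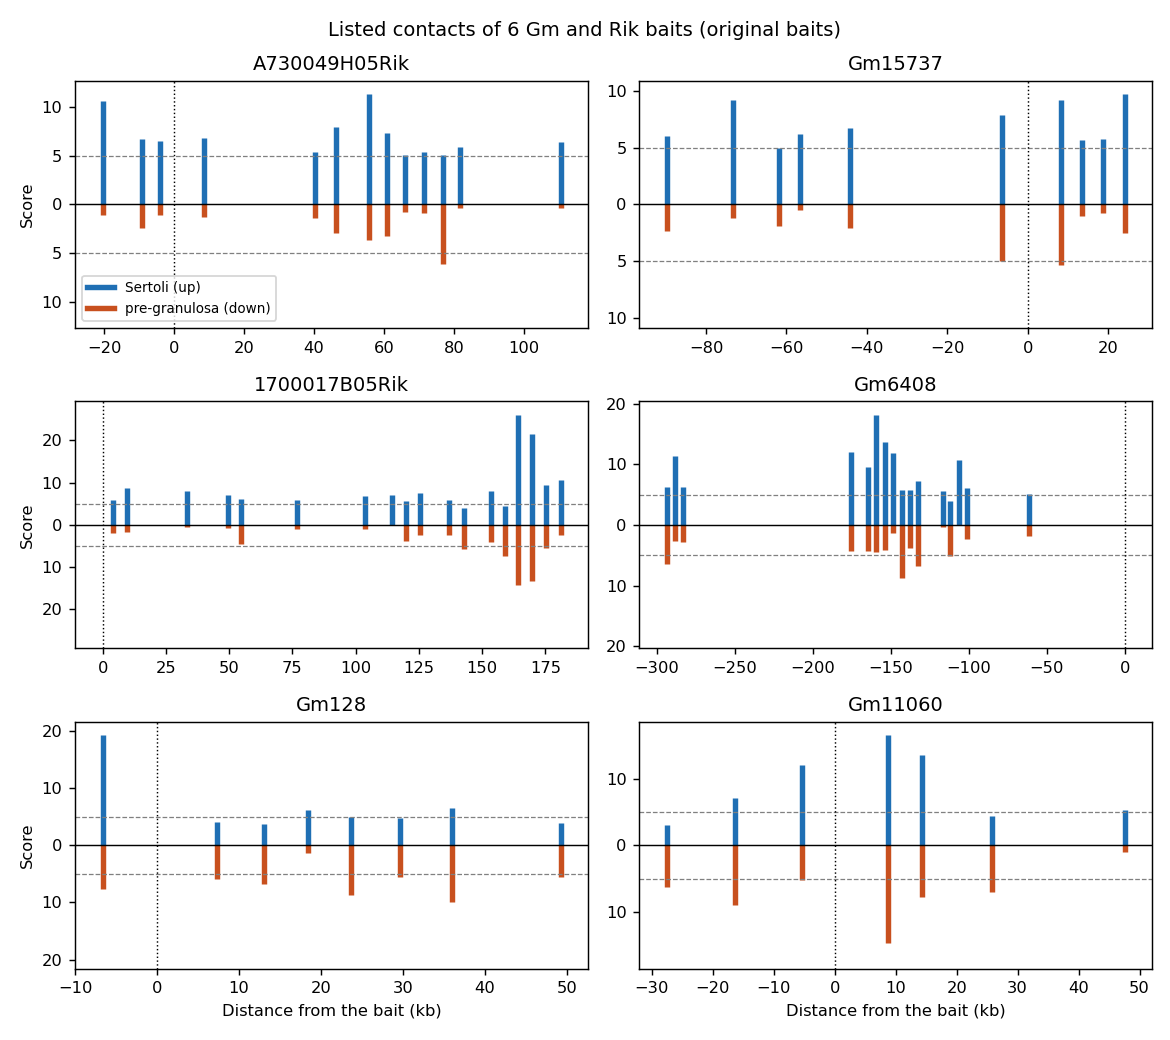
Scores of all listed contacts of 6 Gm and Rik baits by the signed distance of the other end from the bait (x axis, kb), with Sertoli scores drawn upwards and pre-granulosa scores downwards, a dotted line at the bait and dashed lines at the threshold of 5. A730049H05Rik has 13 bars past the upper threshold and 1 past the lower, 1700017B05Rik peaks at 164 kb in both cell types, and Gm128 has 7 bars past the lower threshold.

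The strongest shared contacts with the original baits were those of Gm4969, Gm9999, 2010315B03Rik, Gm32742 and Gm49368. Gm4969 (Bhmg1, a gene for a protein with helix-loop-helix and HMG box domains) scored 26.7 in Sertoli cells against 28.9 in pre-granulosa cells with the bin 4.11 kb away. Gm9999, an lncRNA, scored 23.8 and 16.8 at 4.65 kb, and Gm49368 17.5 and 14.9 at 4.78 kb inside Itgam, so 3 of the 5 were contacts with the next bin. The other two were longer: Gm32742 scored 23.8 and 16.0 at 126 kb, inside 1810046K07Rik, and 2010315B03Rik scored 16.4 and 18.9 at 49.0 kb. Gm11060, not matched in RefSeq and lying 5' of Wt1, which encodes a transcription factor required for gonad formation, had 7 contacts (5 Sertoli and 6 pre-granulosa calls), chosen here for its place and after its values were seen. Its highest pair was 16.6 and 14.7 at 8.69 kb, and its bin within Wt1, 47.6 kb away, scored 5.33 in Sertoli cells against 0.94 in pre-granulosa cells. The Wt1 bait shared 2 of the 7 bins, with 8.81 in Sertoli cells against 3.64 in the bin 16.4 kb from Gm11060, where Gm11060 itself scored 7.17 against 8.91.

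The largest differences at single bins were picked in each direction. Towards Sertoli cells stood C130026I21Rik (13.3 against 0, 320 kb away within Sp110 and Sp140), Gm6408 (10.7 against 0), Gm10203 (10.3 against 0, within Resf1), Gm10135 (9.72 against 0, its bait in Slain2) and Gm8439 (9.46 against 0). A score listed at 0 may be one without a usable value. Towards pre-granulosa cells, with the pre-granulosa score first, stood Gm7694 (5.48 against 0), Gm10643 (6.17 against 0.16, its bait in Rfx1), Gm13090 (above), Gm11756 (5.57 against 0.26) and the lncRNA 4930470P17Rik (5.64 against 0.27, within Dok5). The Sertoli side of these differences lay at 107 to 407 kb and the pre-granulosa side at 8.64 to 291 kb.

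Shared contacts of at least 200 kb numbered 18 of 230 (7.83%, 5.01 to 12.03), against 4.11% (3.64 to 4.64) for the other baits. With the extended baits they were 27 of 454 (5.95%, 4.12 to 8.51), against 3.81%. Bins of 1 bait are counted apart here, as for 4930451I11Rik with shared original bins at 264, 274, 280 and 285 kb. The intervals are therefore too narrow, and baits with many contacts were not removed for this comparison. The longest joined Gm14393 to a bin 2254 kb away with 23.1 in Sertoli cells against 10.3 in pre-granulosa cells, and the extended table gave 22.5 and 13.6 between Gm14393 and Gm14412, 22.8 and 13.0 when read from Gm14412. Of the 52 RefSeq genes between the ends, 39 carry Gm names, and near-identical copies could share reads here, so this contact is uncertain. The next was that of Gm973 at 379 kb (11.8 and 9.37), followed by the lncRNA 1700069L16Rik at 358 kb (6.60 and 11.6), 4930558K02Rik at 325 kb inside Dnm3 (8.43 and 9.02) and 1700016H13Rik at 309 kb (16.9 and 7.18).

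Coding partners could hardly be read with the original baits, whose other ends are bins without a baited fragment. Of the 1007 contacts, 17 (1.69%, 1.06 to 2.69, against 1.57% of all contacts) held a RefSeq coding start, of 14 genes. The shared ones included 1810020O05Rik with Efcc1 (10.9 in Sertoli cells against 8.50 in pre-granulosa cells), Gm42372 with Ccdc8 (9.25 and 12.1) and Gm5741 with Fbxw9 (9.68 and 5.49). Pop4, a subunit of ribonuclease P, was reached by 3 baits of 1600014C10Rik, called in pre-granulosa cells from 1 (6.01) and in Sertoli cells from the other two (5.97 and 6.10). Zfp788 was called from both baits of 2610021A01Rik in pre-granulosa cells alone, at 5.40 and 7.30. With the extended baits both partners were shared, Pop4 at 18.6 in Sertoli cells against 13.4 and Zfp788 at 11.7 against 17.1, so the split seen with the original baits depended on the bait table.

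Extended baits name the promoters at their other ends, and 661 of the 1420 listed contacts of the members (46.5%, 44.0 to 49.1, against 47.5% of all contacts) named a coding gene under a symbol other than the bait's own. For the 63 symbols here not matched in RefSeq, that gene may be the bait's own under another name, and such contacts were not removed. Sertoli cells called 1073 of the 1420 (75.6%, against 78.7%), pre-granulosa cells 801 (56.4%, against 55.9%) and both 454 (32.0%, against 34.6%). Baits with more Sertoli calls numbered 185 of 360 (51.4%, against 53.6%). Shared contacts made up 56.7% of the members' pre-granulosa calls (53.2 to 60.1), under the 62.0% of the other baits (61.4 to 62.6), a gap that the original baits did not show (52.2% against 52.3%). Without baits of 10 or more contacts, a step chosen after the values were seen, the shares with the extended baits were 54.5% (50.4 to 58.6) and 56.2%. A coding partner was named in 58.6% of the shared contacts, 45.5% of those called in pre-granulosa cells alone and 38.3% of those called in Sertoli cells alone, the same order as for the other baits (54.3%, 47.7% and 42.2%).

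These contacts led to 561 coding genes from 281 of the 360 baits. A shared contact linked 253 of the genes, 179 were reached in Sertoli cells alone, 112 in pre-granulosa cells alone, and 17 in both through different contacts, which are 45.1%, 31.9%, 19.96% and 3.03% of the genes. For partners of the other baits the shares were 60.2%, 17.1%, 13.9% and 8.74%, but such a partner had 4.14 contacts on average, against 1.29 here, and the part of that number in these shares was not tested. Most partners (487) belonged to a single bait. Of the 661 contacts, 429 (64.9%, against 67.3% for other baits) were listed again from the partner's side, 328 of them (76.5%) with the same calls. The median gap between both sides was 2.07 in the Sertoli score and 1.43 in the pre-granulosa score. Both sides are read from the same libraries, and contacts listed from 1 side only are left out, so this gap is not an error of the scores. Of the 453 contacts whose other end held a RefSeq coding start, 269 (59.4%) passed over at least 1 other coding start, against 61.6% for other baits.

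The strongest shared coding partners were Bnipl, Ppcdc, Rag2, Tuba4a and Txnip. The contact of 1700017B05Rik with the Ppcdc promoters, 176 kb away, scored 69.7 in Sertoli cells against 32.5 in pre-granulosa cells, and 53.6 and 33.5 from the Ppcdc side. That of Gm128 with Bnipl, 10.96 kb away, scored 47.9 and 33.8, and 29.3 and 25.2 from the other side. The Rag2 promoter, of a subunit of the V(D)J recombinase of lymphocytes, was contacted by B230118H07Rik (Iftap) at 40.3 and 32.4, but at 8.15 and 9.07 from the Rag2 side, which also held a promoter of B230118H07Rik itself. Tuba4a, an alpha-tubulin gene, was contacted by A630095N17Rik at 39.0 and 31.2, and Txnip, of an inhibitor of thioredoxin, by Gm16253 at 23.9 and 26.9. Gm16253 with Txnip was alone among these 5 in scoring higher in pre-granulosa cells from both sides (17.7 and 20.4 from Txnip). Read from the partner, the Tuba4a contact scored 25.3 and 31.1, so its direction, like that of Rag2, depended on the bait that was read.

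The partners with the largest differences had lower scores. Towards Sertoli cells, after A730049H05Rik with Adamts9, stood 1500011B03Rik with Tchp (9.12 against 0 in pre-granulosa cells), 9130019O22Rik with Fbrs (8.99 against 0.02), A630001G21Rik with Spata3 (7.83 against 0) and Gm28372 with Nop56, a core protein of box C/D small nucleolar particles (8.95 against 0.14). From the partner's side the Fbrs contact was listed at 11.7 and 0.06, while those of Tchp, Spata3 and Nop56 were not listed. The bin named for Fbrs lies 96.6 kb from 9130019O22Rik, whose promoter sequence is printed above, and 5 other coding starts lie between them. The bins of Adamts9, Tchp, Fbrs and Nop56 hold no start from the RefSeq promoter records and are partners by the transcript in their name only. The original bait of 9130019O22Rik overlaps Zfp764, from whose contacts its own cannot be told apart.

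Towards pre-granulosa cells stood Gm1113 with Foxred1 and Srpr, genes for a complex I assembly factor and a subunit of the signal recognition particle receptor that start in 1 bin. This contact, over 310 kb, scored 10.4 in pre-granulosa cells against 0 in Sertoli cells, and 9.75 and 0 from the partner's side. 4930451I11Rik with the bin of Aldoa, a glycolytic aldolase, and Fam57b scored 9.23 against 0. The bait had 3 contacts with bins named for Fam57b, all called in pre-granulosa cells, and 1 of them was shared. Gm1123 with Mras, a RAS-family GTPase gene, scored 7.49 against 0. Prr9, of the epidermal differentiation complex, was contacted by 2310050C09Rik over 750 kb (7.68 against 0) and by 2210017I01Rik over 485 kb (6.97 against 0), passing over 30 and 17 coding starts. Of these 5 contacts, those of Gm1113 and of 2210017I01Rik were listed from the partner's side, the latter at 6.14 and 0.

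**Figure D5:**
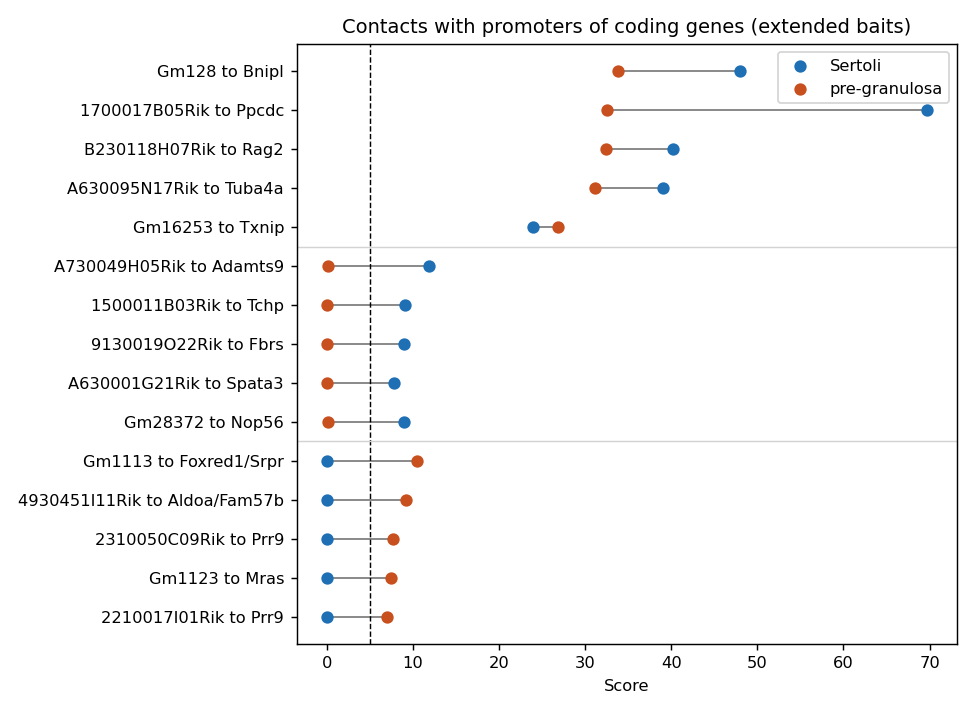
Scores of the 15 contacts between Gm or Rik promoters and promoters of coding genes chosen by rule with the extended baits: the 5 strongest shared (top), the 5 with the largest difference towards Sertoli cells (middle) and the 5 towards pre-granulosa cells (bottom). Each line joins the Sertoli and the pre-granulosa score of 1 contact and the dashed line is the threshold of 5. The shared contacts lie between 23.9 and 69.7, and the highest score of the other groups is 11.8, for A730049H05Rik with Adamts9.

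Some coding genes were reached by several Gm or Rik promoters, a set picked after the values were seen. There were 74 partners of at least 2 baits and 10 of at least 3, and for 6 of the 10 the baits came from more than 1 gene. Cep135, of a centriole protein, was contacted from 5 bait bins of C530008M17Rik (Cracd, of a regulator of actin capping). Sertoli cells called 6 of 6 contacts, at 5.09 to 11.2. Pre-granulosa cells called 1, at 6.85, and the others scored 1.11 to 4.55 there. Cdk15, of a cyclin-dependent kinase, was contacted from 4 bins of Gm973 over 261 to 377 kb, with 4 of 4 called in Sertoli cells (7.32 to 17.5). Pre-granulosa cells called 2 of them (up to 10.9), and the others scored 4.46 and 4.80, just under the threshold. Akt2, of an insulin-responsive kinase, was contacted from 3 bins of 2310022A10Rik, with pre-granulosa calls in 4 of 4 contacts (6.06 to 7.41) and Sertoli calls in 3. The highest pair there was 21.9 in Sertoli cells against 6.65, and the contact without a Sertoli call scored 1.48 against 6.06. Trf, the transferrin gene, was contacted from both bins of 1300017J02Rik. For 1300017J02Rik-206 its 3 contacts scored 7.87 to 12.2 in Sertoli cells and 9.77 to 11.8 in pre-granulosa cells, and for 1300017J02Rik-201 they scored 12.03 to 24.6 and 5.57 to 8.74.

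Partners reached from different genes did not always lean the same way (Sertoli score first in each pair). Spata3, named as a spermatogenesis-associated gene, was contacted by 2810459M11Rik (16.6 and 13.55), 4933407L21Rik (12.9 and 7.24) and A630001G21Rik (7.83 and 0). The bin of Aspdh and Josd2 was called in Sertoli cells from both bins of 1700008O03Rik (11.5 and 3.57 for the first, 7.81 and 6.75 for the second). Pre-granulosa cells called it from 3 of 4 bait bins, the highest being Gm15517 (3.96 and 11.2). Btbd8 was called in pre-granulosa cells in 5 of 5 contacts from Gm42669 and 1700028K03Rik and in Sertoli cells in 3. Krtap5-3, a hair keratin-associated gene, was called in Sertoli cells alone from Gm10153, Gm29735 and Gm4553 (6.48 to 6.80), all in a cluster of similar genes.

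Contacts between Gm or Rik promoters formed a smaller group. The extended table listed 95 contacts whose other end carried only such names, which are 67 pairs when each is counted once. Of these, 32 joined promoters of 1 gene and 35 joined different genes. Read from either side, both cell types called 14 of the 35 (40%, 25.6 to 56.4, against 40.9% of all 16133 pairs of promoters of different genes), Sertoli cells alone 10 (28.6%, 16.3 to 45.1, against 39.6%) and pre-granulosa cells alone 11 (31.4%, 18.6 to 48.0, against 19.4%). Counting only pairs shared from every side listed, 10 of the 35 remained (28.6%, against 29.0%). Of the 15 pairs listed from both sides, 10 were shared from at least 1 side and 6 from both. After Gm14393 with Gm14412, the strongest shared pairs of different genes were Gm6040 with Gm15056 (13.99 and 11.7, in the overlapping gene models named above) and Gm4744 with 1810009J06Rik (8.05 and 13.7). From the other side Gm4744 with 1810009J06Rik scored 5.89 and 13.55, while Gm6040 with Gm15056 scored 4.86 and 6.91 and was not called in Sertoli cells.

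No Gm or Rik bait contacted a promoter of the gonad list, which holds 56 genes known in sex determination and in both supporting cell types. Of these, 26 lie on chromosomes 1 to 9 and 19 of the 26 have a bait name in the extended table, where 0 of the 1420 member contacts named any of them, which allows a share of up to 0.211%. Over all baits 39 of 50644 contacts (0.0770%) did, a share too low for the members' count to be told apart from it. Genes without a bait are outside this count, and so are contacts with gene bodies such as that of Gm11060 within Wt1.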

How the data were processed

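Capture Hi-C libraries (3 Sertoli, 2 pre-granulosa) stand behind 2 tables of scores deposited by the authors, 1 column per cell type. Per the file headers and the labels, each score is a CHiCAGO score of pooled libraries. How they were pooled, the caller's settings and the depth are not given in the sources used here. Contacts enter a table with a score of at least 5 in either cell type. The submitters' processing notes name mm10, so RefSeq coordinates and sequences of GRCm38.p6 were used as the same assembly.

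Baits were selected by symbol and typed by RefSeq. Coding starts came from RefSeq promoter records, which 9907 of 11966 coding genes on these chromosomes have. Columns of no sample numbered 0. Named baits were the 5 with the most contacts, the 5 with the largest excess in each cell type, and for contacts the 5 strongest shared, the 5 longest shared and the 5 with the largest difference of asinh scores in each direction. Further examples are described as chosen after their values were seen. The members and lists were chosen with earlier results of these data known. Intervals are Wilson and order-statistic intervals (Python 3.11.15, pandas 2.3.3, scipy 1.17.1) and were tested on simulated data. Alternatives were the extended baits, a score of 7, equal numbers of calls, a distance of at least 50 kb, merged touching bins, non-coding members, other definitions of a coding partner, and, added after seeing the data, the removal of baits with 10 or more contacts. Neighbouring bins share signal, so intervals are too narrow. No test was made, since no column holds a single library.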

Additional observations from a re-analysis of the deposited data

Results flagged for a closer look

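Contacts outside the cis contacts of chromosomes 1 to 9 were not part of the comparisons. Between chromosomes (trans), the Gm and Rik baits of the original table had 5 listed contacts, of which pre-granulosa cells called 4 and Sertoli cells 1, with a highest score of 6.33. In the extended table they had 6, all called in pre-granulosa cells alone, where all baits had 232 with 212 pre-granulosa and 23 Sertoli calls. Over all baits the original table listed 269 trans contacts with 235 pre-granulosa and 35 Sertoli calls, so the members followed the table. No control sample exists to set a background for these counts.

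On the X chromosome, 10 Gm and Rik baits of the original table had 12 cis contacts, of which pre-granulosa cells called 12 and Sertoli cells 1. The extended table gave 28 and 10 calls among 31 contacts of 24 baits. Over all X baits the original table had 335 pre-granulosa and 131 Sertoli calls among 430 contacts, with 684 and 370 among 880 in the extended one. Sertoli cells come from male and pre-granulosa cells from female embryos, so the number of X chromosomes and the cell type cannot be told apart.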

How the results depend on the processing

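Of 58 alternative values, 30 stayed within their counting interval or, for counts, within 1.5 times, among them every value with touching bins merged, and 28 moved more. The extended baits gave 801 pre-granulosa calls, a shared share of 42.3% of the Sertoli calls, a pre-granulosa median of 34.2 kb, a coding start in 31.9% of contacts and a Sertoli surplus in 51.4% of baits. A score of at least 7 left 317 Sertoli and 179 pre-granulosa calls. Equal numbers of calls gave 424 Sertoli calls, shared shares of 39.4% and 37.9%, and a Sertoli surplus in 32.6% of the 215 baits that kept a call (37.9% over all baits). Contacts of at least 50 kb numbered 411 Sertoli and 154 pre-granulosa calls, with a shared share of 18.2% of the Sertoli calls, medians of 116.8 and 116.7 kb, a coding start in 0.816% and a Sertoli surplus in 75.3% of the 146 baits with such a contact (71.8% over all baits). RefSeq non-coding members alone had 103 and 41 calls, with 22.3% of the Sertoli calls shared, a coding start in 0.826% and a Sertoli surplus in 70.0% of 30 baits. Starts within 1 kb of the other end raised the coding share from 1.69% to 12.7%, and names of other ends with the extended baits to 46.5%. Without baits of 10 or more contacts there were 483 Sertoli calls, with medians of 34.3 and 16.4 kb. No paired analysis was possible because the score columns pool all libraries of a cell type. Depth is unknown, so the part of sequencing depth in the Sertoli surplus was not tested, and leaving out a library was not possible.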
